A study of Homo sapiens with 6 samples.

Results

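Antisense RNA genes carry the name of the protein-coding gene beside or across from which they lie, followed by AS1, AS2 or AS3. In the annotated expression table, 597 rows with a single gene symbol of this form lay on chromosomes 1 to 22, out of 65854 rows in all and 26515 rows with a single symbol, and they covered 589 antisense symbols (515 rows ended in AS1, 66 in AS2 and 16 in AS3). HOX and CDKN2B symbols (11 rows) were left out. Each antisense symbol was paired with the row named by the stem of its symbol, here called the sense partner, which gave 574 pairs with 496 different sense genes. For 15 antisense symbols the table held no such row. A row is a transcript cluster, a set of probes that the array's annotation assigns to 1 locus and strand, and its value is a log2 intensity. The names were given as the table has them, with the current RefSeq symbol added where a member is described and the symbol has changed.

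The arrays compared T24, a human bladder cancer cell line, with T24/THP, a multidrug-resistant line raised from it with the anthracycline pirarubicin. T24/THP was obtained by exposures of 24 h to pirarubicin, the dose rising stepwise from 5 to 1000 ng/ml during more than 6 months, and drug was added again every 2 to 3 weeks, while T24 was kept in culture alongside without the drug. Each line was measured on 3 arrays, described as biological replicates, of total RNA labelled as biotinylated cDNA. T24/THP is a single derivation, so that differences between the lines describe these lines and not pirarubicin resistance in general, and nothing in the labels says that the replicates came from separately grown cultures.

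Natural antisense transcripts are read from the strand opposite to a gene. Some start near the promoter of that gene and are transcribed away from it, some run into its 3′ end, and others lie wholly within it. Individual antisense RNAs are known to recruit or exclude chromatin regulators at the neighbouring gene, to form RNA duplexes with its transcript, to host small nucleolar RNAs, or to act far from their own locus, and many short-lived ones are degraded in the nucleus by the RNA exosome.

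Promoter windows of the pairs on which the results turn are shown first. RefSeq (GRCh38.p14) listed windows of 300 bases around the start of transcription for 408 of the 589 antisense symbols and for 409 of the 496 sense symbols. Both strands were searched for E2F elements, written TTTCCCGC or TTTGGCGC, and for the CCAAT box, and matches are in capitals, so that GCGGGAAA, GCGCCAAA and ATTGG are matches on the other strand. No E2F match overlapped a CCAAT match in these windows. Of all 35116 windows listed, 2.27% held an E2F element and 34.6% a CCAAT box. A match describes letters and not a bound site. PCNA and PCNA-AS1, the only pair in which both rows were called, are shown with both windows listed for PCNA, at chr20:5126573-5126872 and chr20:5119909-5120208 on the minus strand, and with the PCNA-AS1 window at chr20:5119336-5119635 on the plus strand.
PCNA, first window: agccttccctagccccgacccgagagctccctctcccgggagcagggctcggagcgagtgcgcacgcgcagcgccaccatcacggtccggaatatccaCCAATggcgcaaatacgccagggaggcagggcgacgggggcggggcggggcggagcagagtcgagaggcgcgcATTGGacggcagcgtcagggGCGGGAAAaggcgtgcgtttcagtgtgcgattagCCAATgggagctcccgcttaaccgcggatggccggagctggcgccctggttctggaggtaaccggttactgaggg
PCNA, second window: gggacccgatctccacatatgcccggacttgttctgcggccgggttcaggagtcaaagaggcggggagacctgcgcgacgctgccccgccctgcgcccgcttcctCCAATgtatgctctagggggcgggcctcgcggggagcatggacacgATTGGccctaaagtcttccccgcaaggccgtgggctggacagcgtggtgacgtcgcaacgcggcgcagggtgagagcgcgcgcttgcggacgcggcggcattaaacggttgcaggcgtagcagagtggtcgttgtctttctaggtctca
PCNA-AS1: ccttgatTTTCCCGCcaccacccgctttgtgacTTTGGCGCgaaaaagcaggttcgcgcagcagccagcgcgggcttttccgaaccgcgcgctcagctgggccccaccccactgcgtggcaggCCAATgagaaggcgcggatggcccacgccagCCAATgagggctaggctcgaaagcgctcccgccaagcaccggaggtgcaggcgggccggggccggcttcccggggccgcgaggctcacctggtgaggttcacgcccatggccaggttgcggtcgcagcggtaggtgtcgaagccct

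The first PCNA window held 1 E2F element and 3 CCAAT boxes, the second held no E2F element and 2 CCAAT boxes, and the PCNA-AS1 window held 2 E2F elements and 2 CCAAT boxes. The OIP5 pair is shown because its members parted, with the OIP5 window at chr15:41332542-41332841 on the minus strand and the OIP5-AS1 window at chr15:41283740-41284039 on the plus strand.
OIP5: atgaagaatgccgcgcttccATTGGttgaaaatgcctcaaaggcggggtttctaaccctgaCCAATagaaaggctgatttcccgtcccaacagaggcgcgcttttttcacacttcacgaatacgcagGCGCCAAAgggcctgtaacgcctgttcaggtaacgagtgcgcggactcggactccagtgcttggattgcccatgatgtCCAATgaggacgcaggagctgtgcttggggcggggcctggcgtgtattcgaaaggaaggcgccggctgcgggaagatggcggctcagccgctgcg
OIP5-AS1: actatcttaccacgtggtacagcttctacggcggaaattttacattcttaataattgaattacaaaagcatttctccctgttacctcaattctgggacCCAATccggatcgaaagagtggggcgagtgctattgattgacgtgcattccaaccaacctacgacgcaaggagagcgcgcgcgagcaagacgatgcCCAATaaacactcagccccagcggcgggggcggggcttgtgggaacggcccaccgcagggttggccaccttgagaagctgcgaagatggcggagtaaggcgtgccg

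OIP5 held 1 E2F element and 3 CCAAT boxes, and OIP5-AS1 held 2 CCAAT boxes and no E2F element. The window of ZNFX1-AS1 (ZFAS1), not printed, held 1 E2F element. PSMD6 and PSMD6-AS2 are shown as a pair with both rows above background in which the antisense row rose and the sense row was lower by less than 2-fold, with windows at chr3:64023445-64023744 on the minus strand and chr3:64003772-64004071 on the plus strand. GPC5-AS1 had the largest difference of all antisense rows, and the first of its 3 listed windows lies at chr13:92721565-92721864 on the minus strand.
PSMD6: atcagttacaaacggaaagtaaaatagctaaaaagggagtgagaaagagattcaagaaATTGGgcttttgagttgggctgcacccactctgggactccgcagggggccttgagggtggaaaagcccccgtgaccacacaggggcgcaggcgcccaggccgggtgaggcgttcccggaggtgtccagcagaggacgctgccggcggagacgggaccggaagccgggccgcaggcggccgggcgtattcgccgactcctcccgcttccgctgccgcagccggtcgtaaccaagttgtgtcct
PSMD6-AS2: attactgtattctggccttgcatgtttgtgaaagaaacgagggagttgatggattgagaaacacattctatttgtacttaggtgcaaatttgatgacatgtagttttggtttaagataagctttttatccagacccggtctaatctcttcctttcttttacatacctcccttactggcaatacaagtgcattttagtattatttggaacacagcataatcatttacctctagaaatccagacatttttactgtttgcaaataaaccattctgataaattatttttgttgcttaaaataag
GPC5-AS1: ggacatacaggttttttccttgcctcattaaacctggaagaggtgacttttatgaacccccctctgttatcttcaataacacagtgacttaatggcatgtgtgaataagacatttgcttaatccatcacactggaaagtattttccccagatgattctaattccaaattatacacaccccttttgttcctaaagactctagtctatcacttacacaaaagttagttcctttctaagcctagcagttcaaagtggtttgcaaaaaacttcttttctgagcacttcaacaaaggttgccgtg

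The PSMD6 window held 1 CCAAT box, and neither motif occurred in the windows of PSMD6-AS2 and GPC5-AS1.

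The arrays were alike in overall brightness, with medians of 3.71 to 3.79, and array pairs correlated at 0.997 to 0.998 in the same line and at 0.977 to 0.981 across the lines. The 23 background probe sets on the array gave an upper bound of background, the mean over arrays of the brightest of them, of 5.54 in T24 and 5.51 in T24/THP. On T24 replicate 3 the brightest background probe set read 6.38, against 4.93 to 5.60 on the other arrays, and without that array the T24 bound was 5.11. The epithelial genes KRT7, KRT8 and KRT18 and all 4 mesenchymal markers (VIM, CDH2, FN1 and ZEB1) were above the bound in at least 1 line, whereas EPCAM, KRT19, CDH1 and all 8 luminal urothelial markers were within it in both. EPCAM, at 5.31, 5.33 and 5.30 in T24, lay above the T24 bound that leaves out replicate 3. Of the mesenchymal markers VIM rose by 3.51 log2 units, CDH2 (-0.59) and FN1 (-0.38) were lower by less than 2-fold, and ZEB1 differed by 0.07. Of 5 basal urothelial markers only CD44 was above the bound, and it fell (-1.27). Of the markers of other cell types, none of 5 leukocyte, 3 hepatocyte and 4 neural genes was above the bound, and of 4 endothelial genes only CDH5 was, at 12.30 in T24 and 13.12 in T24/THP. The neural gene MAP2 went from 3.72 in T24 to 4.78 in T24/THP, within the bound in both lines. For all 26515 rows, limma was fitted to the log2 intensities, and a row was called when its Benjamini-Hochberg adjusted p was under 0.05 and its difference between the lines, T24/THP minus T24, was at least 1 log2 unit. In cells measured in bulk, fewer cells that hold a transcript and less of it in each cell cannot be told apart.

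Most antisense rows lay within the background bound in both lines. That bound rests on the brightest background probe set of each array. The median background probe set read 2.65 to 2.86, and the median level of the antisense rows was 3.44. The mean intensity was within the background bound in both lines for 552 of the 597 antisense rows (92.5%), compared with 240 of the 496 sense partner rows (48.4%) and 58.1% of all rows with a single symbol. Of the other 45 antisense rows, 36 were above the bound in both lines, 8 only in T24/THP and 1, PCNA-AS1, only in T24. With T24 replicate 3 left out of the bound, 55 antisense rows were above it in a line. Whether low intensity came from the probes or from the transcript was not tested, and a row within the bound has only an upper limit.

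**Figure D1:**
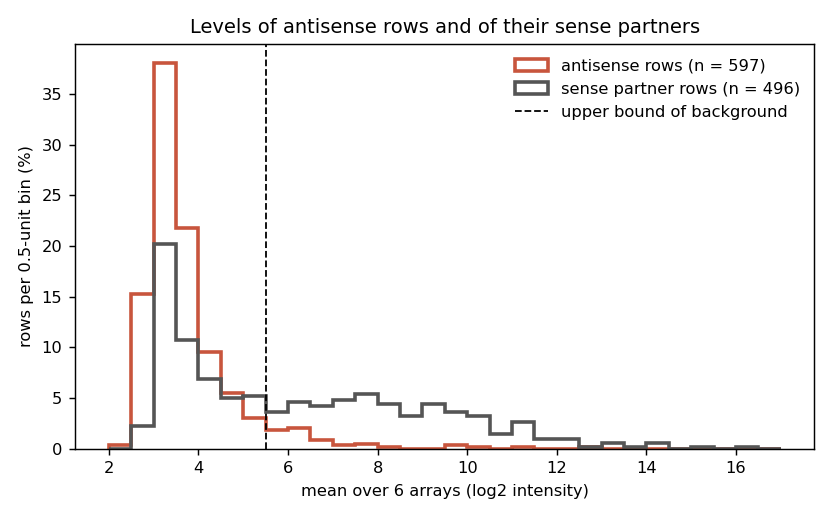
Distribution of the mean log2 intensity over the 6 arrays (x axis) as a percentage of rows in each bin (y axis), for the 597 antisense rows and the 496 sense partner rows; the dashed line is the upper bound of background, averaged over both lines. Antisense rows pile up to the left of the line, with 92.5% of them within background in both lines, while 48.4% of the sense partners are.

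Few antisense rows were called. Limma called 6 of 597 antisense rows (1.01%), compared with 6.69% of all rows with a single symbol. The calls comprised 5 higher and 1 lower row, where 3.02% of all rows were called higher and 3.67% lower. Called rows were less frequent among dim rows in the whole table too. Among the antisense rows whose mean over all arrays was above the bound, 4 of 39 were called (10.3%), against 15.2% of all rows above it, and among those at or under the bound 2 of 558 (0.358%), against 0.955% of all such rows. At adjusted p under 0.05 with no minimum size, 64 antisense rows (10.7%) differed, 45 of them higher and 19 lower, against 32.9% of all rows, and 106 did at an unadjusted p under 0.05. The median difference was 0.03 over the antisense rows and 0.01 over all rows, and 571 antisense rows lay within 0.5 log2 units of 0.

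The row with the largest difference was GPC5-AS1, which lies within an intron of GPC5, the gene of a cell-surface heparan sulfate proteoglycan, at chr13:93353642-93373867 on the minus strand (coordinates of rows are those of the table, on GRCh37). Its intensity was 4.44, 4.27 and 4.34 in the 3 T24 replicates and 8.32, 8.19 and 8.44 in the 3 T24/THP replicates. All T24 values lay under the background bound and all T24/THP values far above it. GPC5-AS1 rose by 3.96 ± 0.082 log2 units (SE; limma, adjusted p = 3.41e-07), which is at least 6.86-fold higher once T24 is set to its background bound, or at least 9.19-fold without T24 replicate 3 in that bound. The GPC5 row itself, with values of 3.44, 3.17 and 3.36 in T24 and 3.29, 3.32 and 3.19 in T24/THP, was within background on all 6 arrays. The call of GPC5-AS1 held in all 15 alternatives run on it, with differences from 2.74 to 4.03.

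XXYLT1-AS2 lies in an intron of XXYLT1, which encodes a xylosyltransferase that extends sugars on Notch receptors, at chr3:194868600-194873519 on the plus strand. It measured 4.49, 4.36 and 4.33 in T24 and 6.19, 6.39 and 5.87 in T24/THP, so that it was within background in T24 and above it in every T24/THP replicate. The rise of 1.76 ± 0.129 log2 units (SE; limma, adjusted p = 4.29e-05) corresponds to at least 1.53-fold, or at least 2.05-fold without T24 replicate 3 in the bound. XXYLT1 was within background in both lines, with a difference of -0.08. When 32 was added to all linear intensities as an offset, the difference of XXYLT1-AS2 was 0.96, under the size required for a call.

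PSMD6-AS2 rose where its sense partner was lower. PSMD6 encodes a subunit of the proteasome lid, and the pair lies tail to tail, with the antisense row at chr3:63989698-64001922 on the plus strand overlapping the 3′ part of PSMD6 over 5698 bases. In T24 the PSMD6-AS2 mean of 5.97 lay near the bound of 5.54. Its value in T24 replicate 3 was under that array's brightest background probe set (6.38). PSMD6-AS2 measured 6.21, 5.85 and 5.85 in T24 and 7.55, 7.26 and 7.37 in T24/THP, with no overlap between the lines. It was 2.68-fold higher in T24/THP (1.42 ± 0.119 log2 units, SE; limma, adjusted p = 7.60e-05), a call lost in limma's test against a 2-fold change (adjusted p = 0.122 for PSMD6-AS2). PSMD6 measured 10.55, 10.57 and 10.61 in T24 and 9.67, 9.89 and 9.79 in T24/THP, lower by 1.73-fold (-0.79 ± 0.0696; limma, adjusted p = 9.69e-05), under the size of a call.

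The row named HNRNPU-AS1 was not antisense to HNRNPU in the table. It lies at chr1:245003940-245010243 on the minus strand, the strand of HNRNPU itself, 3358 bases beyond its end, and RefSeq lists HNRNPU-AS1 as a synonym of HNRNPU, the gene of an RNA-binding protein of the nuclear scaffold. The table marks it as exonic antisense to COX20, an assembly factor of cytochrome c oxidase. Its intensity was 8.96, 9.04 and 9.39 in T24 and 10.72, 10.21 and 10.59 in T24/THP, a separation wider than the spread in either line. It rose 2.60-fold (1.38 ± 0.156 log2 units, SE; limma, adjusted p = 3.43e-04), while HNRNPU was lower by less than 2-fold (-0.42 ± 0.0655; limma, adjusted p = 1.68e-03) and COX20 went from 8.70 to 7.93 (-0.77). The HNRNPU-AS1 call was lost in limma's test against a 2-fold change (adjusted p = 0.518).

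TTN-AS1 runs for most of its length across TTN, the gene of the giant muscle protein titin, at chr2:179387554-179484944 on the plus strand. It measured 5.78, 5.84 and 5.92 in T24 and 7.02, 6.97 and 6.82 in T24/THP, with tight replicates and no overlap. The T24 mean of 5.85 lay near the bound of 5.54. The value in T24 replicate 3 was under that array's brightest background probe set (6.38). The rise was 2.13-fold (1.09 ± 0.0746 log2 units, SE; limma, adjusted p = 3.16e-05), and it fell short of the required size, at 0.79, with an offset of 32 and was not called in a test against a 2-fold change. TTN was within background in both lines (difference 0.03). The OSBPL6 row, which the TTN-AS1 row overlaps on the same strand, differed by -0.12.

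PCNA-AS1 was the only antisense row called lower, and PCNA with PCNA-AS1 was the only one of 574 pairs in which both rows were called. PCNA encodes the sliding clamp of DNA replication, and PCNA-AS1 is a row of 384 bases inside its span, at chr20:5100232-5100615 on the plus strand. PCNA-AS1 measured 5.67, 6.25 and 6.51 in T24 and 4.59, 4.74 and 4.54 in T24/THP, so that the lines did not overlap and T24/THP was within background. It fell by 1.52 ± 0.193 log2 units (SE; limma, adjusted p = 6.28e-04), at least 1.56-fold lower. PCNA measured 11.36, 11.66 and 11.46 in T24 and 9.55, 9.79 and 9.70 in T24/THP and fell 3.52-fold (-1.81 ± 0.0957; limma, adjusted p = 1.03e-05). The ratio of PCNA-AS1 to PCNA changed by 0.29 log2 units, which did not pass the test (limma, adjusted p = 0.192). Whether the 30 probes of the PCNA-AS1 row register only the plus strand was not tested. With an offset of 32 the difference of PCNA-AS1 was -0.87, under the size of a call, and the row was not called in a test against a 2-fold change.

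**Figure D2:**
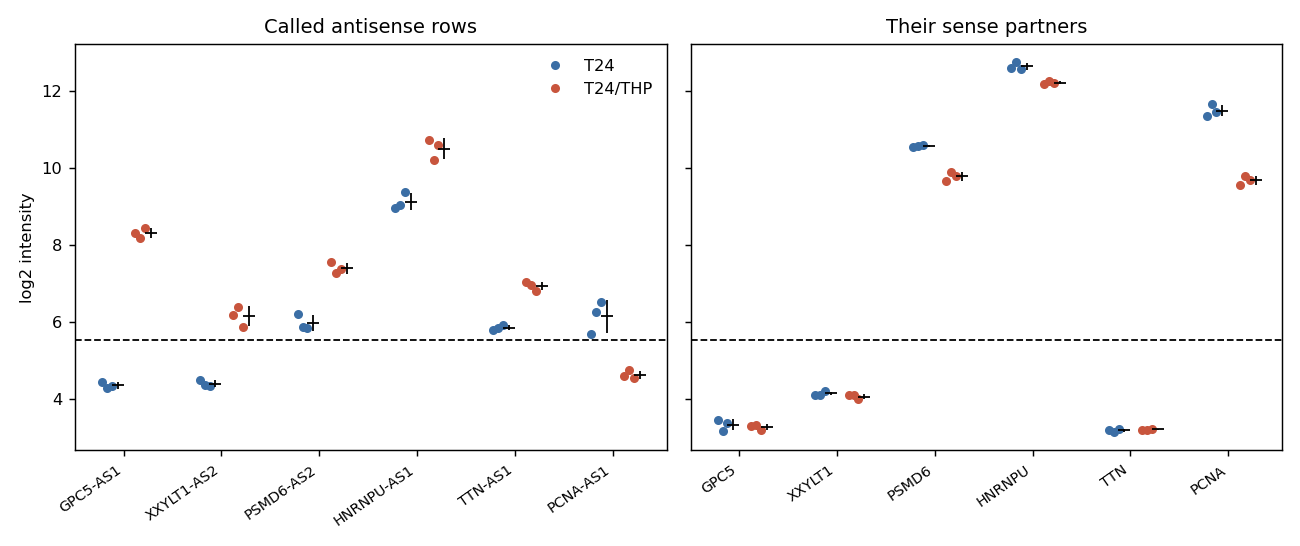
Log2 intensity (y axis) of the 6 called antisense rows on the left and of their sense partners on the right, with 1 point per array in T24 (blue) and T24/THP (red), crosses for the mean ± SD of 3 arrays, and a dashed line at the upper bound of background. The lines separate in every called antisense row, while GPC5, XXYLT1 and TTN stay under the dashed line and only PCNA falls together with its antisense row. Levels of different rows rest on different probes and are not comparable with each other.

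A further 39 antisense rows were above background in a line and were not called, with differences from -0.61 to 0.95. Over all 45 antisense rows above background in a line, 26 had an adjusted p under 0.05 (19 higher and 7 lower). Of these, 20 differed by less than 2-fold. The one nearest to the threshold was TMEM161B-AS1 (now TMEM161B-DT), a transcript divergent from TMEM161B, at 5.53, 5.50 and 5.67 in T24 and 6.54, 6.42 and 6.59 in T24/THP. The lines did not overlap, but the difference of 0.95 ± 0.0739 (SE; limma, adjusted p = 5.64e-05) was under the size required. PRRT3-AS1 (0.88), SBF2-AS1 (0.75), TPT1-AS1 (0.73) and TMEM9B-AS1 (0.71) were likewise higher at an adjusted p under 0.05 but by less than 2-fold, and THAP9-AS1 (-0.54) and KLHL7-AS1, now KLHL7-DT (-0.61), were lower. Apart from TPT1-AS1, these were picked with their values in view.

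The antisense rows of highest level were ZNFX1-AS1, ITIH2-AS1, OIP5-AS1, TPT1-AS1, HNRNPU-AS1 and EPB41L4A-AS1, and only HNRNPU-AS1 among them was called. ITIH2-AS1 lies within ITIH2, a gene of a plasma protein that binds hyaluronan, and measured 11.11, 10.84 and 10.99 in T24 and 11.25, 11.16 and 11.23 in T24/THP. The groups did not overlap, and the difference of 0.23 did not pass the test (limma, adjusted p = 0.0594), while ITIH2 was within background in both lines. TPT1-AS1 starts 25 bases from TPT1, the gene of the abundant growth-related protein TCTP, on the opposite strand. It measured 9.47, 9.52 and 9.40 in T24 and 10.32, 10.26 and 9.99 in T24/THP, higher by 0.73 ± 0.0932 log2 units (SE; limma, adjusted p = 6.39e-04), while TPT1 differed by -0.07.

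Of 8 antisense RNAs listed for their roles in other cancers, ZEB1-AS1, MAPKAPK5-AS1 and MCM3AP-AS1 had a row of their own under that symbol. ZEB1-AS1, divergent from the gene of a repressor of epithelial genes, went from 5.87 to 5.84 (difference -0.03, 95% interval -0.19 to 0.13), and ZEB1 differed by 0.07. MAPKAPK5-AS1 differed by -0.08 and MAPKAPK5, a stress-activated kinase gene, by 0.17. MCM3AP-AS1 was within background in both lines, with a difference of -0.42, and MCM3AP, which encodes a scaffold of messenger RNA export, differed by -0.40. None of these 6 rows reached the size of a call.

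A share of the sense partners close to that of all rows was called. Limma called 34 of the 496 sense partner rows (6.85%), 16 higher and 18 lower, next to 6.69% of all rows, and among sense rows with a mean above the bound 30 of 247 (12.1%) against 15.2% of all rows. Their median difference was 0.02. These 34 sense rows took part in 37 pairs. The antisense row was within background in both lines in 32 of the 37 pairs and above it in a line in 5, and it was called in 1, the PCNA pair. No pair had 1 row called higher and the other called lower, by limma's adjusted p and size, while 18 pairs had opposite and 36 the same signs with both rows at an unadjusted p under 0.05. In all, 42 pairs had at least 1 row called. Among the 4320 other pairs of single-symbol rows that overlap on opposite strands, both rows were called in the same direction in 16 and in opposite directions in 4.

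The 6 sense partners with the largest called falls were RRM1, INHBA, OIP5, WNT5A, PCNA and MIS18A by log2 difference. RRM1, the large subunit of ribonucleotide reductase, fell 5.62-fold, and OIP5 and MIS18A, both parts of the complex that prepares centromeres for CENP-A loading, fell 4.46-fold (-2.16) and 3.24-fold (-1.69). INHBA, which encodes the activin A subunit, measured 11.00, 10.38 and 10.60 in T24 and 8.38, 8.09 and 8.63 in T24/THP and fell 4.88-fold (-2.29 ± 0.184; limma, adjusted p = 6.39e-05), while INHBA-AS1, which overlaps it head to head over 9193 bases, was within background on all arrays (difference 0.04). WNT5A, a secreted ligand of non-canonical WNT signalling, measured 5.97, 6.06 and 5.97 in T24 and 3.93, 3.90 and 4.02 in T24/THP, at least 1.41-fold lower, and WNT5A-AS1 was within background (difference -0.15). The remaining called falls, named after their values were seen, were DIAPH3 (-1.48), PRKAR2A (-1.45), ATPBD4, now DPH6 (-1.43), CIRBP (-1.41), OXCT1 (-1.38), IPO9 (-1.32), SGOL1, now SGO1 (-1.32), COL4A2 (-1.19), RUVBL1 (-1.15), SLC7A11 (-1.14), NOP14 (-1.12) and NEGR1 (-1.04). SGO1 protects sister chromatid cohesion at the centromere, SLC7A11 imports cystine, and CIRBP is an RNA-binding protein induced by cold.

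Among called sense partners above background in both lines, ZFHX4, ZNFX1, TTC28 and NBEA rose most. ZFHX4, a large zinc finger and homeobox gene, measured 7.76, 7.80 and 7.82 in T24 and 10.05, 10.05 and 10.07 in T24/THP and rose 4.81-fold (2.27 ± 0.0523; limma, adjusted p = 4.15e-07). Its antisense row ZFHX4-AS1 measured 3.60, 3.72 and 3.53 in T24 and 4.35, 4.09 and 4.18 in T24/THP, within background in both lines although the arrays of the lines did not overlap (difference 0.59). ABCA9, a lipid transporter of the ABC family, was within background in T24 and rose at least 1.62-fold (log2 difference 2.28), and ABCA9-AS1, within background in both lines, had a difference of 0.82, the largest uncalled antisense difference beside a called sense row. CACNA2D3, a calcium channel subunit, rose at least 1.49-fold (log2 difference 1.98), TTC28 rose 3.61-fold (1.85) and NBEA, a scaffold of membrane trafficking, 3.48-fold (1.80). For these 3 genes the antisense rows were within background, with differences of -0.04, 0.08 and 0.13. The remaining called rises, named after their values were seen, were LMO7 (1.73), LEPREL1, now P3H2 (1.69), EPB41L4A (1.63), CFLAR (1.61), HLA-F (1.40), KTN1 (1.31), STARD4 (1.27) and VCAN (1.10), and ZBTB20 and SAMD12, which were within background in T24 and rose at least 2.19-fold and at least 1.11-fold. CFLAR encodes the caspase-8 inhibitor c-FLIP, P3H2 a collagen prolyl hydroxylase and VCAN the matrix proteoglycan versican. The HLA-F row paired here lies on a haplotype contig, and its other rows, which may share probes, differed by 1.43 to 1.56.

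Sorted by the first letters of the sense symbol, zinc finger genes formed 19 pairs with 13 sense rows, of which 3 rose (ZFHX4, ZNFX1 and ZBTB20) and none fell, where 3.02% of all rows were called higher and 3.67% lower. With so few rows in a group, these counts describe the groups and were not tested. Of 26 rows of carriers and channels, 2 rose (ABCA9 and CACNA2D3) and 2 fell (SLC7A11 and ATPBD4), the last of which is grouped by its letters only and encodes an enzyme of diphthamide synthesis. Among 17 rows of other transcription factors and 6 of translation and RNA genes none was called by limma, and 6 and 4 of them had an unadjusted p under 0.05. In the group of cell cycle and DNA maintenance genes 1 of 5 sense rows fell (PCNA), and 2 of its 5 antisense rows were above background in a line. Grouping by letters left RRM1, OIP5, MIS18A and SGOL1 (SGO1), which also fell, outside this group. No antisense row of the zinc finger, carrier, transcription factor, kinase, matrix or immune groups was called, where 1.01% of all antisense rows were.

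The change of the ratio between the rows of a pair was then tested directly. The log2 difference of antisense minus sense was formed within each array. For rows well above background, the differing brightness of probes cancels from its change between lines. Limma was fitted over 4894 pairs, the 574 antisense pairs and all 4320 other overlapping pairs on opposite strands. The ratio was called changed in 42 of the 574 antisense pairs (7.32%), 23 higher and 19 lower in T24/THP, against 10.4% of all 4894 pairs and 10.9% of the other overlapping pairs. The sense row was the called one in 32 of the 42 pairs and the antisense row in 5, and neither was called in 5 (LPP-AS2, PROX1-AS1, USP12-AS1, USP12-AS2 and GABPB1-AS1). Of these 5, the ratio call of USP12-AS2 was lost in 7 of 14 alternatives, that of PROX1-AS1 in 6 and that of USP12-AS1 in 5, single arrays left out among them; over the alternatives the changes ranged from 0.89 to 1.10, from -1.32 to -0.57 and from 0.89 to 1.14. In 31 of the 42 the antisense row was within background in both lines, where its near constancy says little about the transcript. The differences of the rows correlated at r = 0.14 across the 574 pairs and 0.16 across the other 4320, values that share the same 6 arrays and in which genes are not independent replicates.

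**Figure D3:**
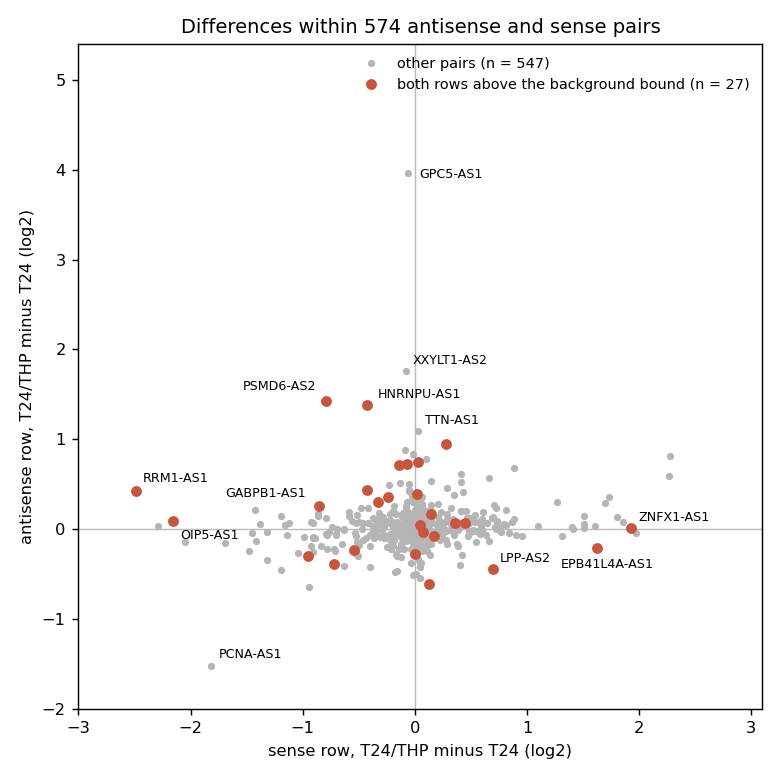
Difference T24/THP minus T24 on the log2 scale for the sense row (x axis) and the antisense row (y axis) of each of the 574 pairs, with the 27 pairs whose rows were both above the background bound in red. Most points lie along the horizontal axis near an antisense difference of 0; GPC5-AS1 stands at 3.96 beside a sense row within background, PCNA-AS1 is the only called point in the lower left, and RRM1-AS1, OIP5-AS1, ZNFX1-AS1 and EPB41L4A-AS1 lie far from the vertical axis with antisense differences under 0.5 in size.

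Only 27 pairs (4.70%) had both rows above the bound by their mean over all arrays, compared with 1021 of the 4320 other overlapping pairs (23.6%). Among these 27 the ratio was called changed in 8 (29.6%), 5 higher and 3 lower, next to 208 of the 1021 other pairs (20.4%). The 8 include the HNRNPU pair, whose rows lie on the same strand. Without T24 replicate 3 the count among the antisense pairs was 6. No test compared these shares. The rows of a pair differed in the same direction in 11 of the 27, next to 605 of the 1021. The correlation r was -0.20 across the 27 and 0.20 across the 1021. With only 27 pairs on the same 6 arrays, these values describe the pairs, and the contrast was not tested.

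Among these 27 pairs RRM1 and its antisense row parted furthest. RRM1 measured 13.66, 13.96 and 13.63 in T24 and 11.32, 11.32 and 11.14 in T24/THP, a fall of 2.49 ± 0.103 log2 units (SE; limma, adjusted p = 3.66e-06). RRM1-AS1, a row of 1142 bases inside the span of RRM1 at chr11:4158346-4159487 on the minus strand, measured 7.72, 8.08 and 7.27 in T24 and 8.02, 8.42 and 7.90 in T24/THP. The antisense replicates of the lines overlapped, and the difference of 0.42 had a 95% interval of -0.08 to 0.92 (limma, adjusted p = 0.194). The ratio rose by 2.91 ± 0.152 log2 units (SE; limma, adjusted p = 1.60e-06).

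OIP5 and OIP5-AS1 face each other tail to tail with 2733 bases between them. OIP5 measured 7.95, 8.02 and 8.37 in T24 and 5.92, 5.95 and 6.00 in T24/THP, with the lines well apart. OIP5-AS1, also known as cyrano, whose vertebrate orthologues carry a site for the microRNA miR-7, measured 9.97, 10.10 and 10.01 in T24 and 10.17, 10.12 and 10.07 in T24/THP. The antisense ranges overlapped, and its difference of 0.09 had a 95% interval of -0.05 to 0.23. The ratio rose by 2.25 ± 0.126 log2 units (SE; limma, adjusted p = 2.16e-06).

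ZNFX1 rose beside the brightest antisense row. ZNFX1, a helicase-like protein known to bind viral double-stranded RNA, measured 8.63, 8.66 and 8.97 in T24 and 10.61, 10.86 and 10.59 in T24/THP, a rise of 3.81-fold (1.93 ± 0.114; limma, adjusted p = 1.66e-05). ZNFX1-AS1, now named ZFAS1, is the spliced host of 3 small nucleolar RNAs of the SNORD12 group and starts 248 bases from the ZNFX1 start on the other strand. It measured 12.60, 12.70 and 12.64 in T24 and 12.62, 12.67 and 12.67 in T24/THP, ranges that overlap, and its difference of 0.01 had a 95% interval of -0.12 to 0.14. The ratio fell by 1.92 ± 0.122 log2 units (SE; limma, adjusted p = 3.74e-06). The rows of SNORD12C, SNORD12B and SNORD12, which lie on the same strand within ZNFX1-AS1, differed by -0.15, 0.24 and 0.39, and none was called.

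EPB41L4A, a protein of the band 4.1 family that links membranes to the cytoskeleton, rose 3.09-fold from 9.59, 9.60 and 9.50 in T24 to 11.12, 11.23 and 11.22 in T24/THP. EPB41L4A-AS1, which lies inside its span and hosts the small nucleolar RNA SNORA13, measured 8.28, 8.24 and 8.46 in T24 and 8.03, 8.10 and 8.21 in T24/THP. Its groups just failed to overlap, and the difference of -0.21 did not pass the test (limma, adjusted p = 0.0864). The ratio fell by 1.84 ± 0.106 log2 units (SE; limma, adjusted p = 2.41e-06). SNORA13 was lower by 0.89 log2 units, under the size of a call.

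PSMD6-AS2 and HNRNPU-AS1, described above, were the pairs among these 27 in which a ratio change came with a called antisense row, 2.21 ± 0.155 (SE; limma, adjusted p = 6.53e-06) and 1.80 ± 0.177 (adjusted p = 4.79e-05). In the last 2 pairs neither row was called on its own. GABPB1, which encodes a subunit of the transcription factor GABP, differed by -0.85 and GABPB1-AS1 by 0.25, and the ratio rose by 1.10 ± 0.146 (limma, adjusted p = 2.76e-04). LPP, a LIM protein of focal adhesions, differed by 0.69 and LPP-AS2 by -0.44, with overlapping antisense values of 5.82, 6.31 and 6.70 in T24 and 5.91, 5.69 and 5.89 in T24/THP, and the ratio fell by 1.14 ± 0.195 (limma, adjusted p = 1.27e-03). Both of these calls were lost without T24 replicate 3, where the changes were 0.96 and -0.92, under the required size. Both were also lost in limma's test against a 2-fold change, and the LPP-AS2 call was lost with an offset of 32 as well.

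**Figure D4:**
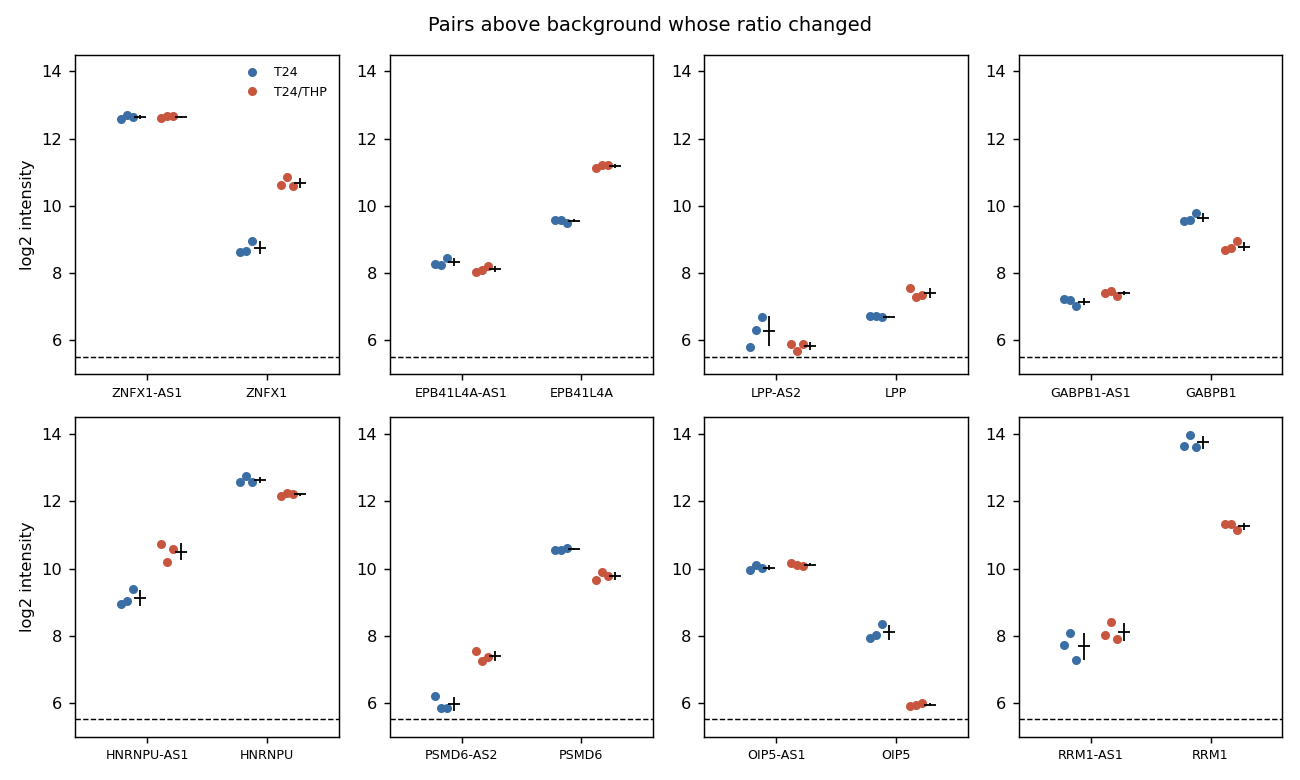
Log2 intensity (y axis) on each array of the antisense and sense rows of the 8 pairs above background whose ratio was called changed, T24 in blue and T24/THP in red, with crosses for the mean ± SD of 3 arrays and a dashed line at the background bound. In the ZNFX1, EPB41L4A, OIP5 and RRM1 panels the sense row moves by 1.63 log2 units or more in size while the antisense row moves by 0.42 or less; in the HNRNPU and PSMD6 panels the antisense row moves up by 1.38 and 1.42.

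**Figure D5:**
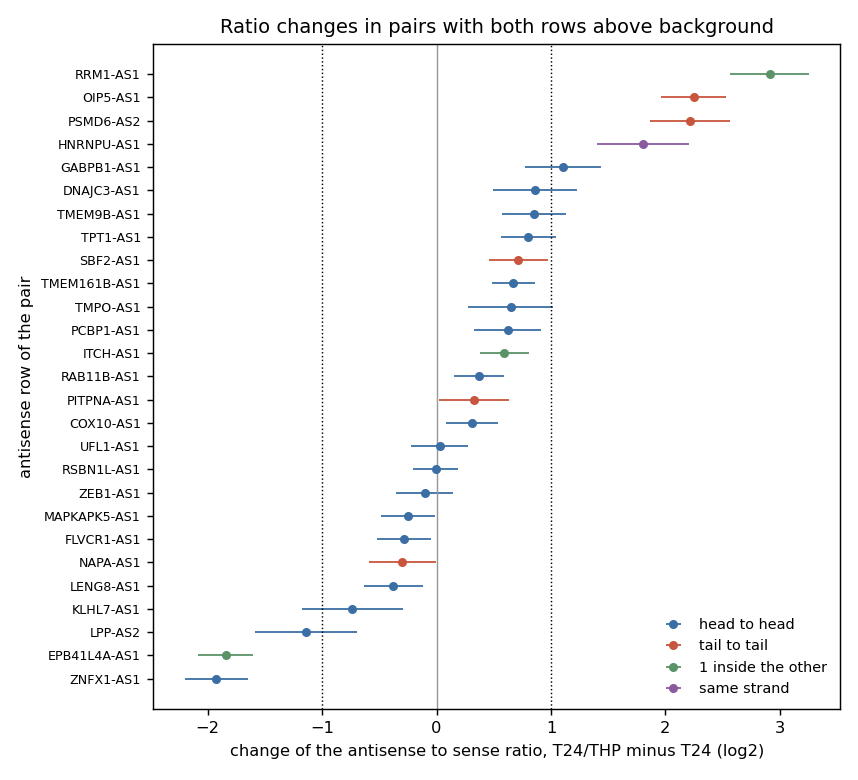
Change of the antisense to sense ratio on the log2 scale, T24/THP minus T24 (x axis), in each of the 27 pairs with both rows above background (y axis), with bars for the 95% interval, dotted lines at the size required for a call, and colours for the arrangement of the pair. Changes run from -1.92 for ZNFX1-AS1 to 2.91 for RRM1-AS1, and 8 of the 27 pairs lie beyond a dotted line with a called change.

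Detection of the antisense row differed by arrangement. Of 195 head-to-head pairs, 110 of which have starts within 1000 bases of each other, 25 antisense rows (12.8%) were above background in a line, compared with 8 of 71 tail-to-tail pairs (11.3%) and 10 of 296 pairs in which 1 row lies inside the other (3.38%). These shares were not tested against each other. Of 194 sense rows of head-to-head pairs 14 were called, 6 higher and 8 lower, where 6.69% of all rows were. Limma called 0 of the 195 antisense rows (44 had an unadjusted p under 0.05), where 1.01% of all antisense rows were called. The count of 0 was not tested against that low share. The ratio was called changed in 16 of the head-to-head pairs (8.21%), against 10.4% of all 4894 pairs. Calls of antisense rows fell in 3 inside pairs, 2 tail-to-tail pairs and the same-strand HNRNPU pair. A further 4 pairs lay over 5 kb apart and 7 had their sense row on a haplotype contig.

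Genes that make, trim or destroy such transcripts were looked at as a list. The list held 58 symbols from nuclear RNA surveillance, termination, double-stranded RNA processing and chromatin silencing. Among them MTREX, TENT4A, TENT4B and INTS11 were entered under both an old and a new name. Of the 58 symbols 51 had a row, and 50 of these rows were above background in a line. Of these 51 rows 4 rose and 6 fell, where 6.69% of all rows and 15.2% of the rows above the bound were called. Their median difference was -0.23, against 0.01 over all rows and -0.07 over the rows above the bound. Those that fell included 3 subunits of the RNA exosome, the main nuclear 3′ to 5′ RNA-degrading complex, and one of its cofactors: EXOSC2 (9.96 to 8.12, -1.84), EXOSC8 (10.18 to 8.37, -1.81), EXOSC9 (8.30 to 6.85, -1.45) and MPHOSPH6 (8.83 to 7.39, -1.44). CPSF3, the endonuclease that cleaves precursor messenger RNAs at the poly(A) site (-1.28), and EZH2, the methyltransferase of Polycomb complex PRC2 (-1.29), fell as well. The other EXOSC rows and DIS3 were not called, with differences from -0.84 (EXOSC1) to -0.12 (EXOSC7). Those that rose were ADAR, which edits adenosines in double-stranded RNA and is induced by interferon (10.59 to 12.26, 1.67), PCF11, a termination factor (1.55), INTS3, an Integrator subunit (1.25), and ZFC3H1, which links nuclear polyadenylated RNA to the exosome (1.23). Whether these changes have a part in the antisense levels was not tested.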

How the data were processed

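The study measured total RNA of T24 and T24/THP cells on 3 arrays each. The values that the authors deposited are log2 intensities, 1 for each transcript cluster, made with Affymetrix Expression Console per the submitters' processing notes; neither its version nor its algorithm is given in the sources used here. These values were used without further normalization. Coordinates are those of the table (GRCh37). Members, groups and lists were chosen with earlier results of these data known. The tests (two-sided) used lmFit and eBayes of limma 3.58.1 under R 4.3.3 (Benjamini-Hochberg adjustment over 26515 rows or 4894 pairs), tables with Python 3.11.15. For sense symbols with several rows (18 symbols) the row of highest mean was used. For a row within the background bound in 1 line the fold is a lower limit, with each dim array at the higher of its brightest background probe set and its own value. Named rows were the called antisense rows, pairs with both rows called, the 6 largest called rises and falls of sense partners, the 6 largest ratio changes in each direction, the 6 brightest antisense rows and 8 fixed antisense genes; others are said to be picked later. Antisense names were matched to RefSeq by accession (234 rows), current symbol (271) or unique synonym (33), and 59 were kept. The call rule was tested on simulated data made from these arrays. P-values measure the spread between these 6 arrays, which may be technical, and the number of arrays limits the precision. Alternatives were quantile normalization, cyclic loess, an offset of 32, 1 row per symbol, a filter on level and all transcript clusters. The others were limma's trend of variance with level, a test against 2-fold, a replicate block and leaving out each array. Probe orientation was not tested.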

Additional observations from a re-analysis of the deposited data

How the results depend on the processing

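Most results held their side of the threshold. Of the recomputed counts 194 stayed within 1.5 times the reported count and 18 did not, and no called difference or ratio change reversed its sign. Among named rows that were not called, the differences of GPC5 (-0.14 to 0.00), INHBA-AS1 (-0.05 to 0.11), TTC28-AS1 (-0.03 to 0.09), ZEB1-AS1 (-0.12 to 0.01) and ZNFX1-AS1 (-0.02 to 0.09) lay on either side of 0 over the alternatives. An offset of 32 on the linear scale shrinks differences of dim rows, and with it 3 antisense rows were called higher and 0 lower, and no pair had both rows called (0 by limma; 106 antisense rows had an unadjusted p under 0.05 without the offset). With rows at or above the median level only, which leaves fewer pairs, the ratio was higher in 5 and lower in 7 pairs. Testing every transcript cluster called 2813 rows, 1502 of them higher. In a limma test against a 2-fold change, 796 rows were called (402 higher, 394 lower), with 2 antisense rows higher and 0 lower, 11 sense rows lower, 2 list genes higher and 3 lower, 0 pairs with both called, and 10 ratios higher and 10 lower; GPC5-AS1 and XXYLT1-AS2 stayed called. Leaving out each array in turn gave 1714 to 1893 called rows (789 to 820 higher, 925 to 1083 lower), 5 to 6 antisense rows higher and 1 lower, 15 to 16 sense rows higher and 16 to 22 lower, and 22 to 26 ratios higher and 17 to 20 lower. Same-numbered arrays deviated together at r = 0.02, 0.14 and -0.01, and arrays of different number at -0.15 to 0.12. These values show no clear pairing by number, but with 3 arrays per line they cannot exclude one. With the replicate block 1777 rows were called, 5 antisense rows higher and 1 lower. Background bounds without T24 replicate 3, and pairs without haplotype contigs, were chosen after seeing the data. Signal over background limits the antisense rows: 552 of 597 have only an upper limit.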

Other observations

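A further set of antisense rows differed between the lines while both lines were within background, where the size of a difference cannot be read as a fold. Among the 552 such rows 38 had an adjusted p under 0.05 (limma), with differences from -0.64 to 0.83. MYO16-AS1 went from 4.08 to 4.91, FEZF1-AS1 from 4.02 to 4.79, and FLI1-AS1 from 4.74 to 4.10. These rows were named after their values were seen. Of the 8 rows above the bound in T24/THP only, GPC5-AS1 and XXYLT1-AS2 were called, and MAGI2-AS3 (5.08 to 5.69), SSTR5-AS1 (5.42 to 5.95) and C1RL-AS1 (5.25 to 5.66) were higher at an adjusted p under 0.05 by less than 2-fold.

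The table's own annotation relates 368 of the 597 antisense rows to a gene as exonic antisense, 121 as intronic antisense, 51 as bidirectional, 48 as intergenic and 2 as exonic sense, and gives no relation for 7, which it marks as coding. The name of 78 rows has changed in RefSeq.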
